A study of Mus musculus with 16 samples.

Results

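Gene expression was described in resting mouse macrophages derived from stem cells, using the 4 control arrays of a series of 16. These arrays hold RNA of cells that had received neither heme-albumin nor lipopolysaccharide and were taken at 0 h, and they were chosen by that label alone. The level of a gene is the log2 of its red signal, the channel that carries the sample, read from the brightest probe of that gene and scaled so that the arrays share a common 75th percentile. Of 20659 named genes on the array, 11775 were well above background in red on all 4 control arrays and are called detected, which is 57.0% of named genes. A further 2314 genes (11.2%) were above background on some arrays only, and the other 6570 (31.8%) did not rise well above background on any.

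The series asks whether heme triggers inflammation, and its other 3 groups of 4 arrays were treated cells, which are not compared here. The labels give 4 independent biological replicates, lettered a to d, but neither the kind of stem cell, the strain nor the culture medium. Each title also carries a tag that is not explained: an M with a number for a and b, ML for c and MR for d. The green channel of every array in the series carries untreated reference RNA of the same kind of cell, so it gives a second reading of the resting state. Both channels of a control array therefore lack any treatment, and no other cell type was hybridised to which the levels could be referred.

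Macrophages are tissue phagocytes that depend on signalling through the colony-stimulating factor 1 receptor and on the transcription factor PU.1, encoded by Spi1. They take up particles, dying cells and worn-out red cells, and break them down in lysosomes, acidic compartments filled with hydrolases. In the resting state they carry the receptors that sense microbes but make few inflammatory cytokines until stimulated.

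Detected genes had a median level of 9.97, with quartiles at 7.71 and 11.81. The lowest level of a detected gene was 3.73, and no gene called not detected had a mean level above 3.4. Levels were also turned into percentiles among the 20659 named genes, in which the top 1% starts at a level of 15.08, the top 10% at 12.45 and the top 25% at 10.42. A probe's brightness depends on its sequence as well as on the amount of RNA, so a percentile places a gene only coarsely and small gaps between genes carry no meaning. Values of genes that were not well above background have no order.

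Between 50.1% and 58.1% of probes were well above background in red on the control arrays, and no red spot was saturated. The arrays correlated with each other at 0.984 to 0.992 over all probes, and the SD of a detected gene over the arrays had a median of 0.147. Per the file headers the scans took 2 days, the first for replicates a and b and the second for c and d. On replicate a, 433 spots were marked as outliers against 126 to 207 on the others, and those of replicate a were mainly bright (median signal 30011). Such spots were left out of levels, so 132 detected genes, many of the brightest among them, have levels from 3 arrays. Only 4 arrays limit the precision.

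The detected set was read again in the green channel, which the choice of genes did not use. Whether the green RNA of a control array came from the same culture as the red is not given in the sources used here. In the green channel of the same 4 arrays 97.9% of the detected genes were again well above background on all 4. In the green channel of the 12 other arrays the share was 95.9% on all 12. None of the 6570 genes not detected in red was detected in either green set. Across the detected genes, red and green mean levels correlated at 0.998, a description over genes that share the same arrays.

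The genes of macrophage identity were detected without exception and many were among the brightest on the array. All 27 named members of the list of macrophage core identity genes were detected, against 57.0% of all named genes, and 17 of the 27 lay in the top 10%. Their median percentile was 93.3. Cd68, a glycoprotein of macrophage lysosomes, was not analysed here because its probe could not be named.

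Csf1r, the receptor for the growth factor that keeps macrophages alive, read 15.65, 15.30 and 15.27 in replicates b, c and d, a mean of 15.41 ± 0.21 (SD, n = 3) at percentile 99.4. Its other probes were dimmer, the lowest at 11.22, and the median over its probes still lay at percentile 95.8. Adgre1, which encodes the surface antigen F4/80, read 15.05, 15.07, 14.45 and 14.64 in replicates a to d, a mean of 14.80 ± 0.31 (SD, n = 4). Both genes were thus far above the level that opens the top 10% in every array measured.

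Fcgr1, the high-affinity IgG receptor, read 12.22, 11.77, 11.74 and 12.18 (mean 11.98 ± 0.26, n = 4) at percentile 86.9. Spi1 read 8.82, 8.51, 8.44 and 8.39 (mean 8.54 ± 0.19, n = 4) at percentile 62.0, the lowest of the core list. The master regulator of the lineage was therefore detected on all arrays but at a moderate signal. The highest member was Mpeg1, a pore-forming protein of phagosomes, at 15.98 ± 0.13 (n = 4), although its second probe read 9.64. Trem2, a lipid-sensing receptor of macrophages, followed at 15.96 ± 0.18 (n = 3).

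The signalling adaptors Tyrobp and Fcer1g stood at 15.16 ± 0.10 and 14.82 ± 0.06. Among transcription factors of the lineage, Cebpb read 14.26 ± 0.12, Irf8 13.24 ± 0.09 and Mitf 13.03 ± 0.18. Each of these was in the top 10%. The largest spread was that of Laptm5, a lysosomal membrane protein of blood cells, which read 13.44 in replicate a and between 12.36 and 12.76 in the others.

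**Figure D1:**
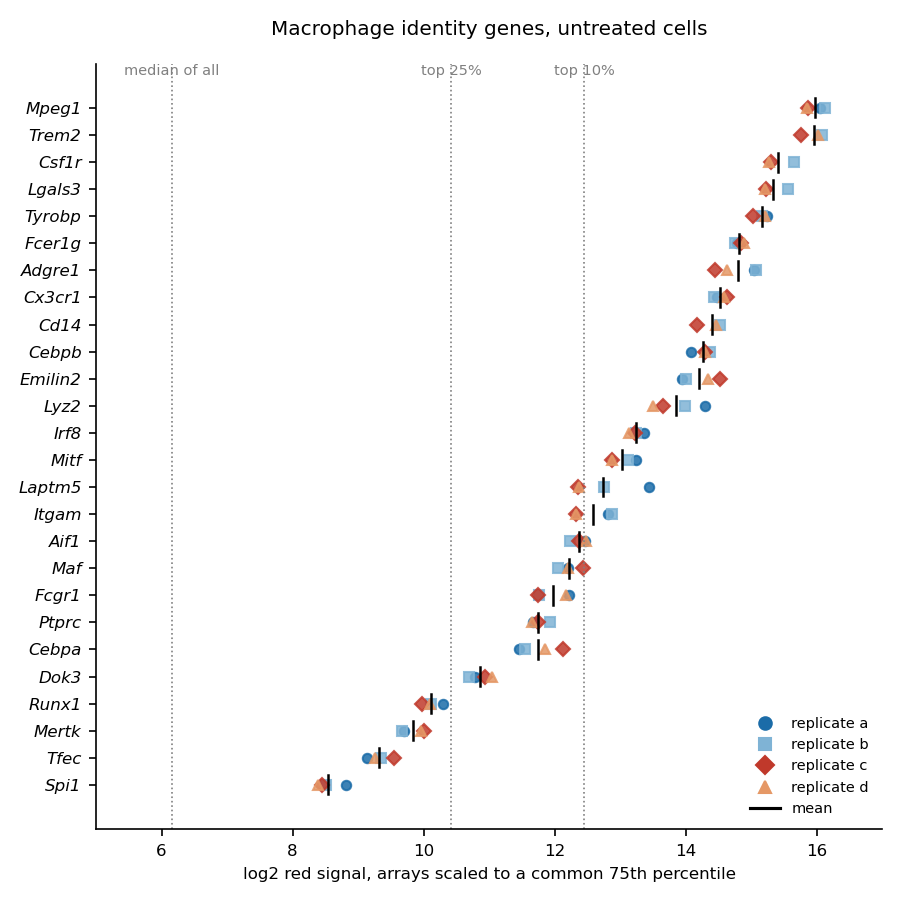
Levels of detected macrophage core identity genes in untreated cells, as log2 red signal on the horizontal axis. Symbols are the control replicates a to d, black bars are means, and dotted lines mark the median of all named genes and the lower bounds of the top 25% and top 10%. Mpeg1 stands highest at 15.98 and Spi1 lowest at 8.54, and the spread of the replicates is small beside the distance between genes.

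Promoter sequences of RefSeq (build GRCm38.p6, 250 bases before to 50 bases after a gene's start) were matched by symbol to 16373 of the 20659 named genes. They were searched on both strands for 9 short motifs. Genes that were detected had a median of 20 CG dinucleotides in this window, against 4 for genes not detected and 6 for those above background on some arrays. The GC box GGGCGG occurred in 63.2% of promoters of detected genes and 27.1% of those not detected (49% of all), and the TATA motif TATAAA in 7.43% and 20.9% (12.7% of all). The genes read as expressed in resting macrophages thus more often had promoters rich in CG. CCAAT was held by 38.8% of all promoters, TGACTCA by 4.59%, TTGCGCAA by 0.226% and the composite ETS and IRF element by 0.257%.

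The motif AGGAAGT, which holds the GGAA core that PU.1 and other ETS factors recognise, occurred in 9.04% of all promoters. It was found in 4 of the 20 core identity promoters in the table (20%) and in 23.6% of 127 receptor promoters. The longer GAGGAAGT, which contains it, occurred in 2.94% of all promoters, in 9.45% of those of receptors and in 0 of the 20 core identity promoters. Some lists of other cell types held these motifs more often than the core list: neutrophil promoters had AGGAAGT in 50% and GAGGAAGT in 41.7% of 12, and T and NK cell promoters had AGGAAGT in 41.7% of 12. A match is a description of the letters and not a bound site. Windows around the match are shown for Lyz2, which encodes lysozyme, and Fcgr1, since both are classical macrophage genes detected here, with the motif in capitals. In both the capitals are the reverse complement of AGGAAGT, and the windows lie at chr10:117282346-117282392 and chr3:96294004-96294050, each on the minus strand.
Lyz2: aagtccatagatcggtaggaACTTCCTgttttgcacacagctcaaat
Fcgr1: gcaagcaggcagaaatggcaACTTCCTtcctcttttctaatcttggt
The motif began 100 bases before the start of Lyz2 and 61 bases before that of Fcgr1. Lyz2 read 13.86 ± 0.35 (n = 4) and lay at percentile 96.4.

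Factors that set the programme of particular tissue macrophages were mixed. Of 17 on the list, 14 were detected and 2 were in the top 10%. Id3, needed for Kupffer cells of the liver, read 12.80, 12.81, 13.17 and 13.22, and Zeb2 read 12.55 ± 0.12. Pparg, which drives the alveolar programme, read 11.80 ± 0.17 and Nr1h3, the liver X receptor alpha, 10.87 ± 0.12. Gata6 of peritoneal macrophages, Rarb and Sall1 of microglia were not well above background on any array. Spic, the factor of red pulp macrophages that handle iron, was detected at 5.79 ± 0.16.

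Surface markers of tissue macrophages were detected in 8 of 16 cases, near the share of all named genes (57.0%), and in 11 of 16 without replicate a. Folr2, a folate receptor, was brightest at 13.80 ± 0.17, followed by Icam2 at 12.30 ± 0.18 and the mannose receptor Mrc1 at 11.10 ± 0.29. Lyve1, Cd209f, Clec4f of Kupffer cells and the hemoglobin receptor Cd163 were not well above background on any array. Timd4, Tmem119, Vcam1 and Vsig4 were above it on some arrays only. Of the 9 named monocyte markers 8 were detected. S100a4, a calcium-binding protein, read 16.24 ± 0.08 (n = 3), and Ms4a4c 15.71 ± 0.14 (n = 3). Ccr2, which draws monocytes out of the marrow, read 10.69 ± 0.35.

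Markers of other cell types were detected less often as a group, although the lists differed. The 126 named genes mark pluripotent stem cells, blood progenitors, other blood cells, stroma, endothelium and epithelium. Of these 40 were detected (31.7%, against 57.0% of all named genes). Only 2 of the 126 lay in the top 10%, namely Pf4 and Il7r. In RNA of whole cultures, a few cells of another type and little RNA in every cell cannot be told apart. Leaving out an array can only keep or raise such counts, and replicate a had the smallest share of probes above background in red (50.1%). Without replicate a, more genes counted as detected: 9 in place of 5 for neutrophils, 8 in place of 5 for progenitors, 6 in place of 3 for dendritic cells and 5 in place of 3 for endothelium. Erythroid cells had 2 in place of 0 without that array, and mast cells and epithelium 2 in place of 1 each.

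Pluripotency genes split. Of 11 named genes of embryonic stem cells 6 were detected, near the share of all named genes (57.0%), and none lay in the top 25%. In the green channel 5 of the 11 were detected on the control arrays and 4 on the 12 other arrays. The 4 genes of the list that were not well above background on any array were Pou5f1, Sox2, Fgf4 and Zfp42. Nanog was detected at 6.37, 6.39, 6.27 and 6.32, and Dppa3, a factor of germ cells and early embryos, at 9.28 ± 0.19 (n = 4). Tdgf1 was detected at 7.29 ± 0.17 by 1 of its 3 probes, and the lowest of the others read 1.31. Nanog was thus steady over the 4 arrays at a signal near the median of all named genes, which was 6.15.

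Among progenitor genes, Ly6a, Cd34 and Procr were detected at 12.27 ± 0.16, 12.25 ± 0.85 and 11.97 ± 0.14. The factors Tal1 and Meis1 stood at 9.49 ± 0.02 and 8.79 ± 0.11. The stem cell factor receptor Kit and Mecom were not well above background on any array, and Flt3, Myb, Hlf and Gata2 only on some. Of 12 neutrophil genes 5 were detected, led by the granule protease Elane at 11.02 ± 0.57 and the collagenase Mmp8 at 10.15 ± 0.56. S100a9, S100a8 and Camp were the other 3, while Prtn3, Cxcr2 and Retnlg were not.

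Some single genes known from other lineages were bright. Pf4, a chemokine stored in platelets, read 14.71, 14.43, 14.73 and 14.72, and 3 of the other 7 megakaryocyte genes were detected. Nfe2, Ppbp and Gp1bb read 6.05 ± 0.47, 5.79 ± 0.84 and 4.22 ± 0.52, and Itga2b, Gp6, Gp9 and Gp1ba were not well above background on any array. Il7r, the interleukin 7 receptor of lymphocytes, read 12.39, 12.58, 12.72 and 12.83. Of 13 genes of T and NK cells 5 were detected, the others being Nkg7 at 10.27 ± 0.23, Cd4 at 8.26 ± 0.84, Cd3e at 7.32 ± 0.34 and Lck at 6.29 ± 0.13, while Cd3d, Cd3g and Cd8a were not well above background anywhere.

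Vwf, the von Willebrand factor of endothelium, read 11.67 ± 0.14, whereas Tie1, Emcn and Cldn5 were not well above background. The dendritic cell list had 3 of 12 genes detected, with Siglech at 12.31 ± 1.22 and Itgax at 9.68 ± 0.40. Clec9a, Zbtb46 and Flt3 were above background on some arrays only, and Xcr1 on none. No erythroid gene of 8 was detected on all arrays, and of 11 stromal genes Acta2 and Col1a2 were. By contrast 10 of 11 genes of osteoclasts, bone-resorbing cells of the same lineage, were detected. These included the acid phosphatase Acp5 at 11.83 ± 0.43 and the receptor Tnfrsf11a at 10.91 ± 0.10, and Calcr was not.

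**Figure D2:**
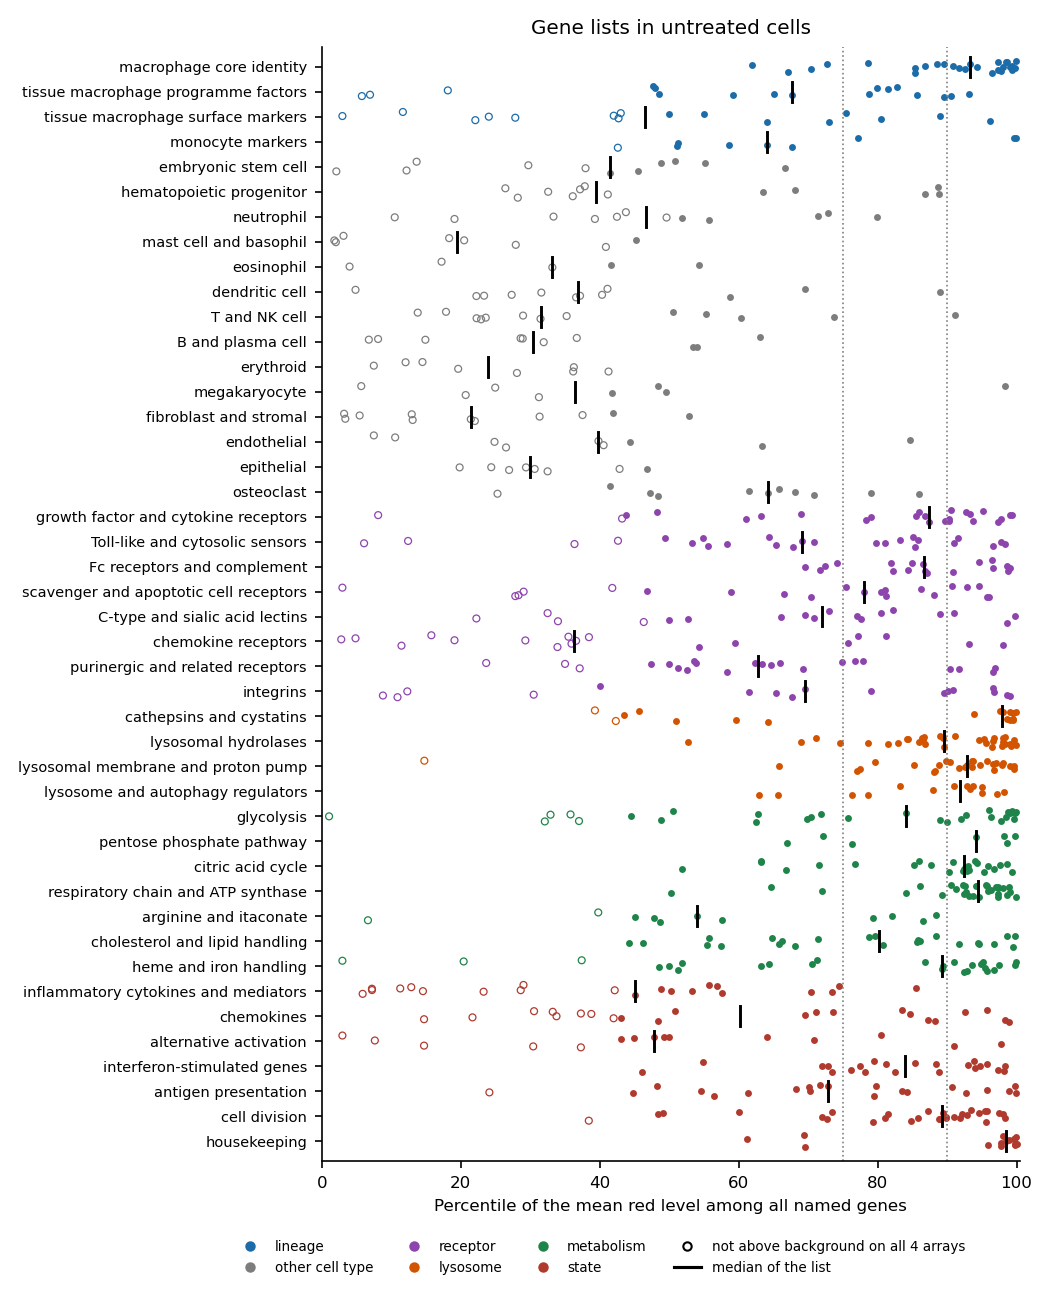
Percentile of each list member among all 20659 named genes, by mean red level in untreated cells. Each point is a gene, filled where it was above background on all 4 arrays and open where it was not, coloured by the role of its list, with black bars at list medians and dotted lines at the top 25% and top 10%. The core identity list has its median at 93.3 and cathepsins at 97.8, while lists of other cell types lie further left. An example is the erythroid list at 23.9, where no gene was detected on all 4 arrays. Open points, and medians that fall among them, have no order.

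Of 161 named receptor genes 128 were detected (79.5%, against 57.0% of all named genes) and 41 were in the top 10%, although the lists differed. For growth factors and cytokines 23 of 25 were detected. Csf2ra and Csf2rb, the chains of the GM-CSF receptor, read 15.07 ± 0.17 (n = 3) and 14.42 ± 0.37, and Csf3r, the G-CSF receptor, 13.49 ± 0.44. The interferon gamma receptor Ifngr1 read 14.23 ± 0.12 and the tumour necrosis factor receptor Tnfrsf1b 13.11 ± 0.07. The remaining genes of the list were Il1r1, above background on some arrays only, and Il18r1, on none, both receptors of the interleukin 1 family.

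Of 25 microbial sensors and their partners 21 were detected. Tlr13, which senses bacterial ribosomal RNA, was brightest at 14.79, 14.77, 14.47 and 14.73. Cd14, the co-receptor for lipopolysaccharide, read 14.40 ± 0.19 (n = 3), and Tlr4 itself read 11.01, 10.99, 11.02 and 11.03. The resting cells therefore carried transcripts of each part of the lipopolysaccharide receptor, since Ly96, the Tlr4 partner MD-2, read 11.72 ± 0.11. Tlr2 read 11.82 ± 0.11, Tlr7 11.47 ± 0.42 and Tlr9 9.44 ± 0.22. The inflammasome sensor Nlrp3 was low at 5.99 ± 0.25. Tlr5 and Tlr8 were above background on some arrays only, and Tlr11 and Tlr12 on none.

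All 18 Fc receptor and complement genes were detected and 14 lay in the top 25%. Properdin, encoded by Cfp, read 15.08 ± 0.08, and the C1q chains C1qc, C1qb and C1qa read 14.91 ± 0.09, 13.85 ± 0.16 and 13.31 ± 0.11. The inhibitory receptor Fcgr2b and the activating Fcgr4 were the lower Fc receptors at 10.33 ± 0.24 and 10.08 ± 0.29. For scavenger receptors 16 of 21 were detected. Cd300lf read 13.74 ± 0.27, Cd36, which takes up oxidised lipids, 13.65 ± 0.04, and Stab1 13.30 ± 0.09. Mertk and Axl, receptors for dying cells, read 9.83 ± 0.18 and 10.80 ± 0.25, and Olr1 and Megf10 were not well above background.

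Of the 18 named genes on the list of lectins, which also holds the lipid-sensing receptor Trem2, 14 were detected. Clec4d at 14.85 ± 0.05 and Mgl2 at 12.60 ± 0.24 came after Trem2. Clec5a, Clec4a2 and Cd209a were not well above background. Chemokine receptors were the sparsest receptor list, with 7 of 18 detected, against 57.0% of all named genes. Cx3cr1, the fractalkine receptor, read 14.48, 14.44, 14.63 and 14.58. Cxcr4 and Cxcr3 stood at 11.19 ± 0.10 and 10.50 ± 0.16, and Ccr1, Ccr4, Ccr6, Cxcr2, Cxcr5, Cxcr6 and Xcr1 were not well above background on any array.

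Receptors for nucleotides and lipid mediators were detected in 19 of 22 cases. P2ry6 and P2rx4, which respond to extracellular UDP and ATP, led at 14.03 ± 0.03 and 13.93 ± 0.07, and P2rx7 read 12.51 ± 0.16. Of 17 integrin genes 13 were detected. Itgb5 read 15.19 ± 0.08 and Itga6 14.87 ± 0.13. Itgb2 and Itgam, which pair as complement receptor 3, read 13.91 ± 0.11 and 12.59 ± 0.30. Itga1, Itga2, Itgad and Itgb8 were not well above background.

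Lysosomal genes were among the brightest of all. Of 92 named genes on the 4 lysosomal lists 89 were detected (96.7%, against 57.0% of all), and 52 lay in the top 10%. In the top 1% stood 14 of them. The exceptions were Atp6v1b1, a proton pump subunit known from kidney, which was not well above background, and Ctsw and Ctsg, cathepsins of lymphocytes and granulocytes, which were above background on some arrays only.

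Cathepsins, the proteases of the lysosome, and their inhibitors had a median percentile of 97.8. Ctsd read 16.19, 16.24, 15.91 and 15.95 in replicates a to d, and its second probe 13.58. Ctsl, Ctsb and Ctss read 15.54 ± 0.35, 15.49 ± 0.31 and 15.46 ± 0.24 (n = 3 each). Replicate b held the highest reading of each of these proteases among the arrays measured. The inhibitor Cst3 was bright as well, at 15.09 ± 0.29. Ctsk, the cathepsin of osteoclasts, stood lower at 8.89 ± 0.14.

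All 33 lysosomal hydrolases and related luminal proteins were detected, 29 of them in the top 25%. Sgsh, a sulfatase of heparan sulfate, read 16.60, 16.19 and 16.31 in replicates b, c and d, which made it the fifth highest gene of the array. Its other probe read 12.52, so that position rests on 1 probe. Grn, the progranulin gene, read 15.59 ± 0.08 (n = 3) and Hexa 15.28 ± 0.03. Arsb, another sulfatase, was the lowest at 6.74 ± 0.24.

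In the membrane of the lysosome, Lamp1 read 15.78, 15.98, 15.58 and 15.68, and Cd63 15.60 ± 0.14. The proton pump that acidifies the lumen was detected in every named subunit apart from Atp6v1b1, with Atp6v0e at 15.09 ± 0.05 and Atp6v1a at 14.55 ± 0.07. Slc11a1, the metal transporter of phagosomes that affects resistance to intracellular bacteria, read 13.66 ± 0.08. All 14 regulators of lysosomes and autophagy were detected. Of the related factors that switch on lysosomal genes, Tfe3 read 13.46 ± 0.06, Mitf 13.03 ± 0.18 and Tfeb 8.70 ± 0.10, each detected on all 4 arrays.

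Those factors recognise an E box known from lysosomal promoters, whose core was searched as CACGTGAC on both strands. It occurred in 3.08% of all 16373 promoters, in 4.4% of those of detected genes and in 5.63% of those of the top 10%. In the lysosomal lists it occurred in 11 of 74 promoters (14.9%). No test was made of that share, since the lists were chosen by function and their genes are also bright. Of the 10 members whose match lies before the start, windows are shown for the 5 of highest percentile, with the motif in capitals on the strand of the gene.
Sgsh: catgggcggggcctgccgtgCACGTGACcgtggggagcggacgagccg
Ctsd: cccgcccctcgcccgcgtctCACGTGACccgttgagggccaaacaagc
Lamp1: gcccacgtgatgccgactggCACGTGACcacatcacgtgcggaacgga
Gla: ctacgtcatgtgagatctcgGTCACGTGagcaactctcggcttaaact
Mcoln1: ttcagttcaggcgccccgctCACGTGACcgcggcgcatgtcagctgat
They lie at chr11:119355512-119355559 (minus strand), chr7:142387898-142387945 (minus), chr8:13159113-13159160 (plus), chrX:134601174-134601221 (minus) and chr8:3500454-3500501 (plus). The motif shown began 29 bases before the start of Sgsh, 98 before that of Ctsd, 28 before that of Lamp1, 196 before that of Gla and 45 before that of Mcoln1. In the window of Gla it is the reverse complement that lies on the gene's strand. Ctsd held a second match 245 bases before its start. Mcoln1 held a second one, as the reverse complement, 73 bases before its start. Gla, the galactosidase that is lacking in Fabry disease, read 14.68 ± 0.53 (n = 3), and Mcoln1, a calcium channel of the lysosome, 12.89 ± 0.17.

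Of 150 named metabolic genes 140 were detected (93.3%, against 57.0% of all named genes) and 75 were in the top 10%, while 4 were above background on some arrays only and 6 on none. In glycolysis 24 of 29 were detected. Aldoa, the muscle-type aldolase found in most tissues, read 16.57, 16.64, 16.39 and 16.54 and was the third highest gene of the array. Pgk1 read 15.86 ± 0.07 (n = 3), Gapdh 15.63 ± 0.36 and Ldha 15.41 ± 0.32. Ldhc of testis and the insulin-responsive glucose transporter Slc2a4 were not well above background, while Slc2a1 read 12.29 ± 0.22. These forms not detected are ones known from particular tissues.

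All 7 genes of the pentose phosphate pathway were detected, with Taldo1 at 15.86 ± 0.13 and G6pdx, its first enzyme, at 13.23 ± 0.14. All 24 genes of the citric acid cycle and all 30 of the respiratory chain and ATP synthase were detected as well, and 24 of the latter 30 lay in the top 10%. Mdh2 read 15.36 ± 0.17, Cox6a1 15.98 ± 0.08 and Atp5b 15.16 ± 0.19. Isoforms of muscle and lung in the chain were the lowest, with Cox6a2 at 8.97 ± 0.54 and Cox4i2 at 6.20 ± 0.36.

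Lipid handling genes were detected in 24 of 24 cases. The lipase Lpl read 15.77 ± 0.39 (n = 3), Plin2, which coats lipid droplets, 15.55 ± 0.08 (n = 3), and the lipid carrier Apoe 14.81 ± 0.16. Scd1 and Fasn, enzymes that make fatty acids, were the lowest at 5.24 ± 0.45 and 4.76 ± 0.35. In arginine and itaconate metabolism 9 of 11 were detected. Odc1 and Ass1 led at 12.20 ± 0.21 and 11.92 ± 0.21. Arg1 and Nos2, enzymes that compete for arginine in differently activated macrophages, were both low, at 5.63 ± 0.99 and 4.99 ± 0.89.

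Genes of heme and iron handling bear on the later heme treatment of the series, and 23 of 26 were detected before it. The ferritin chains Ftl1 and Fth1 read 16.41 ± 0.16 (n = 3) and 15.80 ± 0.12, which put Ftl1 next after Aldoa on the array. Hmox1, the inducible heme oxygenase, read 14.54, 14.61, 14.09 and 13.94, at percentile 97.5, and its other probe read 10.35. Its transcript was thus already high in cells given no heme.

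Ncoa4, which delivers ferritin to lysosomes, read 13.95 ± 0.10, and Hmox2, the constitutive heme oxygenase, 13.57 ± 0.14. The heme transporter Slc48a1 of the phagolysosome read 13.48 ± 0.13 and the iron exporter Slc40a1 12.57, 12.87, 12.22 and 11.80. Lrp1, the receptor for heme bound to hemopexin, read 12.94 ± 0.10. Cd163, the receptor for hemoglobin bound to haptoglobin, and the hormone gene Hamp were not well above background on any array. Ireb2 and Hp were low at 6.13 ± 0.15 and 6.45 ± 0.37.

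Of 21 named genes of inflammatory cytokines and mediators 11 were detected, near the share of all named genes (57.0%), and none lay in the top 10%. On no array were 9 of the 21 well above background, where that held for 31.8% of all named genes. Tnf was detected at 7.35, 6.75, 6.64 and 6.82, and Il1b at 6.59, 6.12, 5.38 and 5.39. Il6, Il1a, Il12a, Il23a, Ptgs2, Csf2, Csf3, Ifnb1 and Lif were not well above background on any of the 4 arrays. The highest of the list were Ptgs1, the constitutive cyclooxygenase, at 11.77 ± 0.45 and Il18 at 10.35 ± 0.10.

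Of 22 named chemokine genes 14 were detected, again near the share of all named genes (57.0%), and 4 were in the top 10%. Ccl9 read 15.16, 14.88, 14.87 and 15.00, and Ccl6 13.67 ± 0.18. Ccl2, which attracts monocytes, read 13.79 in replicate a and 12.69, 12.55 and 12.58 in the others. Cxcl3, Cxcl12 and Ccl22 were not well above background, and Cxcl1, Cxcl2 and Cxcl9 only on some arrays. Genes of alternative activation were detected in 10 of 15 cases, also near the 57.0% of all named genes, with a median percentile of 47.9. Tgm2, a transglutaminase, read 14.45 ± 0.16, whereas Retnla and Pdcd1lg2 were not well above background.

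All 22 named interferon-stimulated genes were detected and 17 lay in the top 25%, although Ifnb1 was not. Bst2, which tethers viruses to the cell, read 14.67 ± 0.17, Oas1a 14.60 ± 0.18 and Rtp4 14.20 ± 0.12. Isg15, a ubiquitin-like protein, read 13.22, 12.94, 13.50 and 13.77.

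In antigen presentation 20 of 21 were detected. The class I genes H2-D1 and H2-K1 read 16.08 ± 0.10 and 15.94 ± 0.09 and their partner B2m 15.01 ± 0.28, although probes of such close paralogs can share signal, as can those of Lyz1 and Lyz2. Class II genes were lower and more variable, with H2-Eb1 at 11.51 ± 1.10 and H2-Aa at 7.18 ± 0.92, and Ciita, their main activator, was not well above background. Cell division genes were detected in 29 of 30 cases, 12 of them in the top 10%. Mki67, a protein of cycling cells, read 13.86, 13.74, 13.53 and 13.58, Pcna of replication forks 14.70 ± 0.13 and Birc5 of mitosis 14.31 ± 0.07. Transcripts of dividing cells were thus present in each of the untreated cultures.

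The 25 genes of highest level were mainly those every cell uses, with 9 ribosomal protein genes among them. Tuba1b, an alpha tubulin, was first at 16.77 ± 0.03 (n = 3), followed by Actb, beta actin, at 16.57 ± 0.24. Of the 100 named ribosomal protein genes 96 were detected and 53 were in the top 1%. Macrophage, lysosomal and iron genes within the 25 were Ftl1, Sgsh, S100a4, Spp1, H2-D1 and Ctsd. Spp1, which encodes the secreted protein osteopontin, read 16.26, 16.02 and 16.01 in replicates b, c and d.

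Probes of 1 gene often disagreed. Of 3882 detected genes with several probes, 1874 (48.3%) had probes that differed by more than 3 on the log2 scale. Among the 25 highest, Septin3 read 16.05 on 1 probe and 1.80 on the other, Sp110 had a probe at 7.84 and Rps27a one at 3.73. Levels of such genes rest on the brightest probe alone. Pak4 and Exosc2 had a single probe each, at 16.11 ± 0.13 (n = 3) and 16.09 ± 0.29, so no second reading exists for them.

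**Figure D3:**
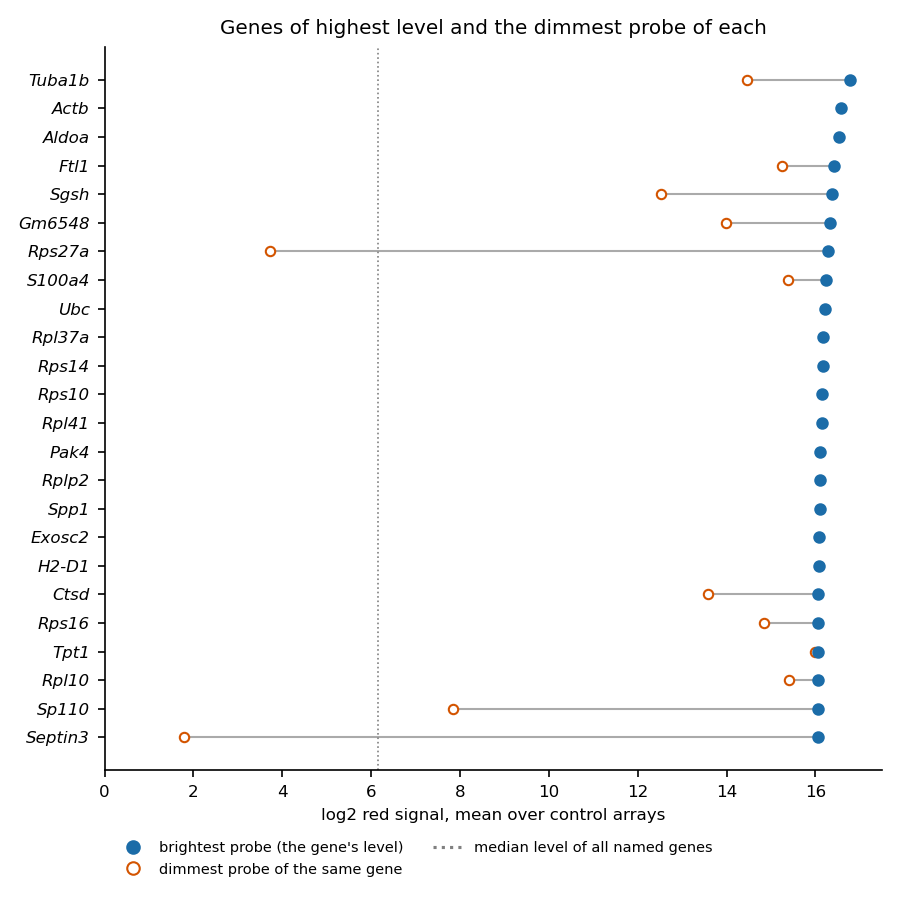
Genes of highest level in untreated cells, with the mean log2 red signal of the brightest probe in blue and, where a gene had several probes, of the dimmest probe as an open symbol. The dotted line is the median level of all named genes. Tuba1b leads at 16.77, and Septin3 and Rps27a have a probe below the median of all genes.

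Red was compared with green on the 4 control arrays, where both carry untreated RNA. The deposited ratios are dye-normalised, so a dye effect common to all genes had been removed beforehand. Effects of the dye on single genes and differences of the reference RNA cannot be told apart here. By limma, with Benjamini-Hochberg adjustment and a change of at least 2-fold, 2 of 11527 genes differed (0.0174%). Rnase10 was higher in red by 1.02 on the log2 scale (SE 0.04, adjusted p = 0.000988), higher on 4 of 4 arrays. Secisbp2l was lower in red by -1.28 (SE 0.16, adjusted p = 0.00512), lower on 4 of 4. None of the list members was called. Without replicate a 11 genes were called and without replicate b 1, while 5272 genes had an unadjusted p under 0.05.

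Some genes differed between the untreated cultures of the 2 scan days. The 10 most variable genes above the median level were Siglech, Gm4832, H2-Eb1, Gm13304, Sf3a2, Cd5l, Cfap300, Arhgap1, Amz1 and Sstr5, and in each the readings of replicates a and b did not overlap those of c and d. Siglech, a receptor of plasmacytoid dendritic cells and microglia, read 13.41 and 13.25 on the first day and 10.94 and 11.61 on the second. Its second probe was near background at 1.56. H2-Eb1 read 10.44 and 10.71 on the first day and 12.67 and 12.21 on the second. For Cfap300 and Cd5l the 2 readings of the second day lay further apart than the lower reading of the first day lay from the higher reading of the second.

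By limma on scaled red levels, 229 of 11771 genes differed by at least 2-fold between the scan days (1.95%), 60 of them higher and 169 lower on the second day. Without scaling between arrays 366 were called, 38 higher and 328 lower, and the median of all genes moved from 0.03 to -0.13. Without replicate a or without replicate b no gene was called, although 3844 and 4154 genes then had an unadjusted p under 0.05. Scan day, slide and culture cannot be told apart, since each replicate letter has its own slide and culture. The form of the tags in the titles splits the replicates along the same line.

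Several genes of granulocytes and monocytes were higher on the second day. The antimicrobial peptide gene Camp read 5.14 and 5.58 on the first day and 7.98 and 7.58 on the second, a difference of 2.42 (SE 0.20, adjusted p = 0.0117 by limma). S100a9, a calcium-binding protein of neutrophils, read 8.24 and 9.25 against 11.09 and 11.20, a difference of 2.40 (SE 0.33, adjusted p = 0.0217). With S100a8, 3 of the 5 detected neutrophil genes were called, all higher on the second day. Among all 11771 genes tested 1.95% were called, 60 higher and 169 lower, and a list of 5 is short. The summed linear signal of the 12 neutrophil genes was 3789 and 5047 on the first day and 6358 and 5977 on the second. Elane, the brightest of them, ran the other way with 11.32 and 11.67 against 10.51 and 10.57, and Prtn3, Cxcr2 and Retnlg were not well above background anywhere. The part of such cells in the differences was not tested.

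Of the class II genes, H2-Eb1 (1.87), H2-Aa (1.55) and H2-Ab1 (1.33) were higher on the second day by limma. Chil3, a chitinase-like protein of monocytes and alveolar macrophages, was higher by 2.19, the coagulation factor gene F13a1 by 1.64, the scavenger receptor Marco by 1.36 and the itaconate enzyme Acod1 by 1.30. Lower on the second day were Siglech (-2.05), the inhibitory lectin Siglece (-1.71), Nos2 (-1.53), Kdr (-1.43) and Cd4 (-1.41). The largest differences overall were those of Spint1 (2.61), a protease inhibitor, and of Krtap19-5 (-2.49). None of the 27 core identity genes was called, and their median difference was -0.09. Of lysosomal genes Lyz1 alone was called (-1.11), with no reading from replicate c. Among all genes tested 1.95% were called. At that share lists of these sizes would hold few or none, so the counts of the core identity and lysosomal lists do not set them apart. Other lists held more, such as 3 of 20 genes tested in antigen presentation and 2 of 8 among monocyte markers. Those counts rest on few genes, and whether the lists differ was not tested.

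The green channel carried the same differences. On green levels 266 genes were called, 190 of them among the 229 called in red. For S100a9 the green mean was 8.83 on the first day and 11.23 on the second, and for Siglech 13.42 and 11.48. On the ratio of red over green 0 genes were called by limma, with 641 at an unadjusted p under 0.05. The differences were therefore shared by both channels of an array, and the ratios did not show them at this threshold.

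**Figure D4:**
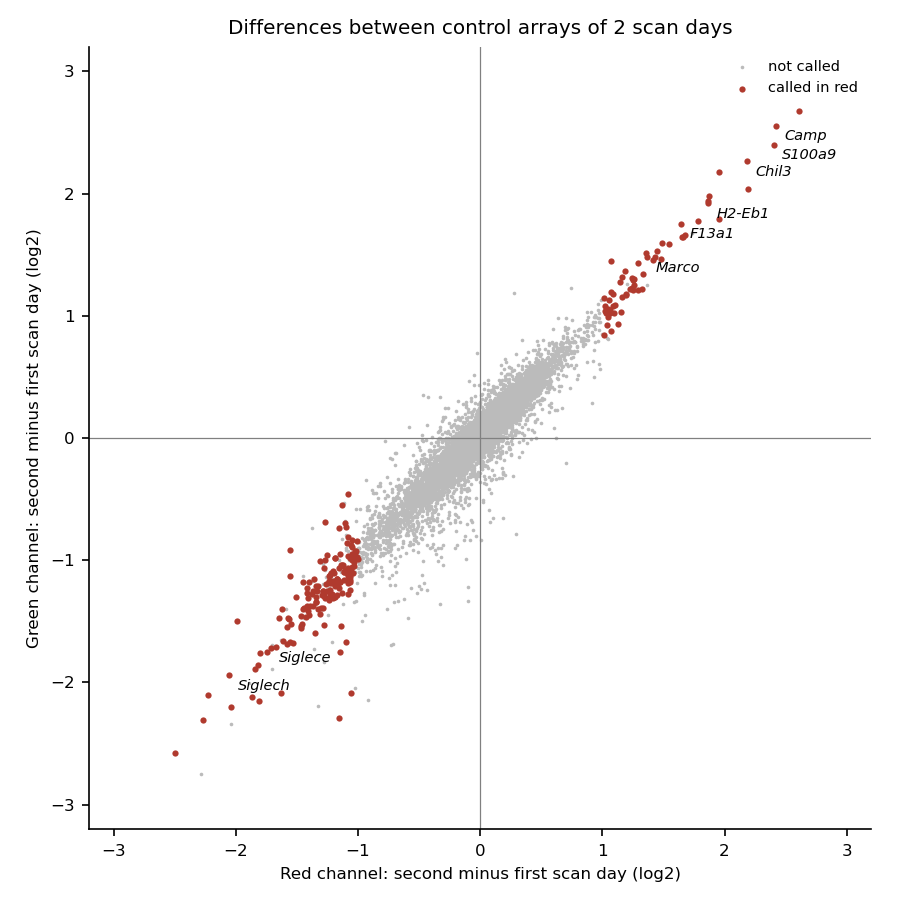
Difference in log2 level between the second and the first scan day for genes detected in the control arrays, in the red channel (horizontal) and the green channel (vertical). Each point is a gene, in dark red where called in the red channel by limma. Camp, S100a9 and Chil3 stand above 2 in both channels and Siglech near -2, and called genes lie along the diagonal.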

How the data were processed

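The red and green signals deposited by the authors are spot intensity values from Agilent Feature Extraction 10.7.3.1, background-subtracted and dye-normalised per the file headers. The deposited log10 ratios of red over green come from the same software, per the file headers. They served only for the comparison of red with green and for that of the scan days on ratios. Gene lists and named genes were chosen with earlier results of these data known.

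Control spots were left out, and spots marked as outliers in red were left out of levels but kept for detection. Spots of a probe were averaged, each array was scaled to its 75th percentile, and the probe of highest mean log2 intensity stood for its gene. Accessions matched to mouse genes of assembly GRCm38.p6 named 27234 of 39429 probes; 12195 stayed unnamed here. A gene was detected where any probe was well above background on all 4 arrays. Tests used limma 3.58.1 in R 4.3.3 (Benjamini-Hochberg adjusted p under 0.05 and at least 2-fold) and were tested on simulated data first. P-values over 4 arrays have a median of 6.23 degrees of freedom for dye and 5.02 for scan day. Where leaving out an array left 1 on a scan day, that array was assumed to vary like the others. Named genes followed a rule: the markers, the 25 highest, the 10 most variable, up to 6 detected members of highest percentile and 6 lowest or not detected per list, all lineage and receptor members, and the 6 largest test differences each way. Csf3, Cst3, Cxcl2, H2-Ab1, Ifnb1, Il12a, Il1b, Lyz1, Mcoln1, Slc2a1, Slc40a1, Slc48a1, Tnf and Zbtb46 fall outside it and were chosen after their values were seen. A few genes covered by the rule are not reported here. Alternatives covered detection, probe choice, background, scaling, channel and single arrays. Plots used matplotlib 3.10.9.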

Additional observations from a re-analysis of the deposited data

Results flagged for a closer look

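For 516 genes with readings on all 4 control arrays, the highest or lowest reading was set against the others by Dixon's criterion. It marked 18 genes (3.49%) and chance marks about 1 in 20 groups. Replicate a held 7 of these readings, b 6, c 1 and d 4. High in replicate a were Ccl2 at 13.79, Cd33 at 6.55, Cdk1 at 11.45, Ctso at 5.27, Cyp27a1 at 7.57 and Pdhb at 12.99, and low there was Tyro3 at 5.13. In replicate b Fth1 was high at 15.98, while Adora2b at 6.79, Atp6v0b at 12.36, Ndufb5 at 12.74, Pf4 at 14.43 and Tfrc at 8.56 were low. Scarb2 was high in replicate c at 12.25. In replicate d Axl at 11.17, Ccl5 at 10.63, Steap3 at 10.12 and Uqcrc1 at 12.79 were high. The gap to the nearest reading was widest for Ccl2, at 1.11.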

How the results depend on the processing

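The number of detected genes, 11775, ran from 11777 to 12608 when 1 control array was left out, the highest without replicate a, and was 11317 to 12639 under the other settings. Of 560 named percentiles, taking the median over a gene's probes moved 33 by more than 10 points, at most 37.1 (Tdgf1), whereas background correction, scaling, the green channel, and outlier spots kept (an alternative chosen after seeing the data) moved none by more than 3.55. Using detected genes alone as the denominator moved percentiles by a median of 10.2 by construction. Red against green called 0 genes with normexp and loess (5164 at an unadjusted p under 0.05 by limma), 0 without background subtraction (5395) and 13 without a filter on dim genes, and 1 to 11 when 1 array was left out. The scan days differed in 366 genes without scaling, in 0 on the ratio of red over green (641 unadjusted), in 0 without a filter (3048 unadjusted) and in 0 to 301 when 1 array was left out; the causes were not tested. No paired analysis was possible because only the untreated group was analysed, so no second group shares its replicate letters; red and green were compared within each array. Signal near background limits what can be said of low genes, which may be present below it.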

Other observations

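Of the 12195 probes that could not be named here, 4064 (33.3%) were well above background in red on all 4 control arrays, so the resting cells hold signal that the gene lists do not cover.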
